A study of Mus musculus with 14 samples.

Results

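The mitosis genes examined here are 57 genes whose products carry a cell from entry into mitosis to its division into daughter cells. They were chosen by symbol, as the array probe sets that carry only 1 of the member symbols, with the brightest probe set taken for each gene. Of the 57 genes, 56 were measured this way, out of 19938 genes on the array. Ccnb1, which encodes cyclin B1, had no probe set of its own in the probe annotation and was not measured. The genes were followed in plantaris muscles taken from C57BL/6J males aged 5 months, at day 0 and after 1, 3, 5, 7, 10 and 14 days of overload by synergist ablation, an operation that takes away the neighbouring muscles and leaves their load to the plantaris. Each of the 7 days had 2 arrays (Affymetrix Mouse Gene 1.0 ST), 1 with RNA pooled from right muscles and 1 with RNA pooled from left muscles, and each pool came from 6 animals. The mice carried no engineered allele according to the labels, and the samples hold no sham-operated group, so every change from day 0 includes the response to surgery and the passage of time. P-values measure only the spread between such pools, and some of that spread may be technical. The labels do not say whether both pools of a day hold muscles of the same mice. If they do, the n of 2 pools a day stands for 2 muscles of 1 set of animals and not for independent replicates. The spread between single animals was not measured.

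Mitosis begins when Cdk1, bound to cyclin A or cyclin B, is switched on, after which chromosomes are condensed, attached through kinetochores to a spindle of microtubules, checked for attachment, pulled apart and separated by cytokinesis. Most of these genes are transcribed late in the cell cycle and are silent in resting cells, so their RNA is widely used as a sign of dividing cells. The nuclei of a muscle fibre no longer divide, whereas satellite cells, the stem cells of muscle, and the macrophages, fibroblast-like cells and vessel cells between the fibres can. The 12 muscle fibre markers read, among them Acta1, Ckm and Ttn, were present on all arrays, at log2 intensities between 12.14 and 14.40.

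All 56 measured mitosis genes were higher at days 3, 5 and 7 than at day 0, and all 56 had fallen again from day 7 to day 10. At days 1, 3, 5, 7, 10 and 14 their median log2 difference from day 0 was, in that order, 0.10, 1.76, 1.97, 2.06, 0.91 and 0.61, while the median of all genes lay between -0.16 and -0.07. Differences were fitted with limma over all 14 arrays, and a gene was called at an adjusted p under 0.05 (Benjamini-Hochberg over all genes of a comparison). In the same order, 6, 56, 56, 56, 47 and 39 members were called higher. Of all genes, the percentages called higher were 20.3, 24.2, 27.0, 28.5, 23.6 and 21.4. Members called lower numbered 4 at day 1, 0 at days 3, 5 and 7 (0 also at an unadjusted p under 0.05), and 1 on each later day, against 34.7%, 23.4%, 38.1%, 37.8%, 27.5% and 20.7% of all genes. These 6 comparisons share the day 0 arrays, so they are not independent of each other. In RNA from whole muscle, fewer cells of a type and less RNA per cell cannot be told apart.

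**Figure D1:**
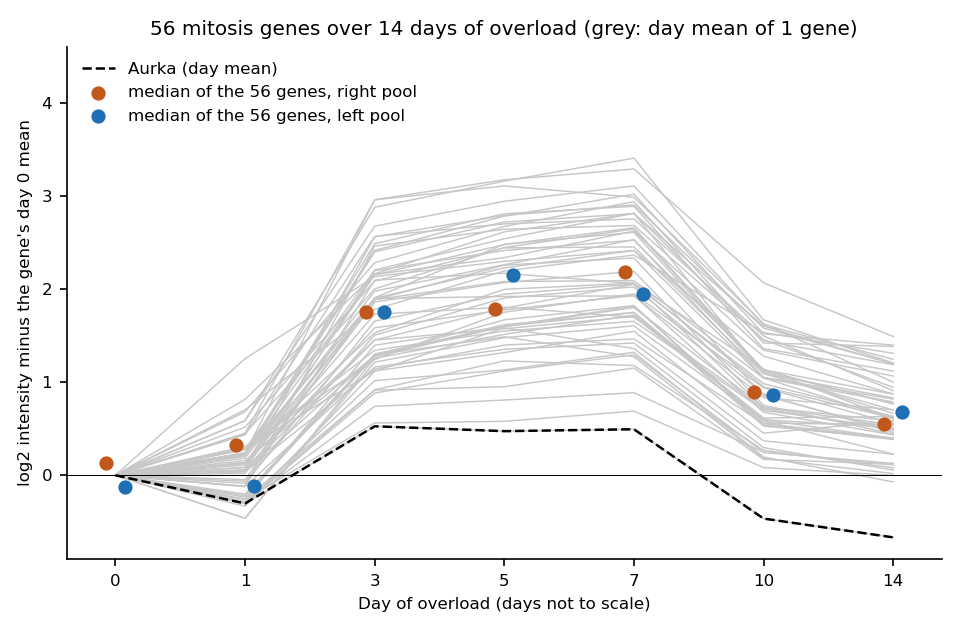
Difference of each of the 56 mitosis genes from its day 0 mean (log2 intensity, y axis) by day of overload (x axis, not to scale); grey lines are day means of 1 gene, the dashed line is Aurka, and points are the median of the 56 genes in the right and left pools. The pool medians were 0.13 and -0.13 at day 0 and 1.76 in both pools of day 3. They were 1.78 and 2.15 at day 5, and 2.18 and 1.95 at day 7.

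The day of the highest mean was day 7 for 49 genes, day 5 for 6 genes and day 3 for 1 gene, Aurka. Between days 5 and 7, 0 members were called, so the order of these 2 days is not settled. The median of the 56 genes rose from 1.78 to 2.18 in the right pools and fell from 2.15 to 1.95 in the left pools. Over the 7 days all 56 members passed the limma F test at an adjusted p under 0.05, as did 71.3% of all genes. Past a 2-fold change as well, 50 members were higher at day 3, 53 at day 7 and 12 at day 14, against 7.52%, 9.68% and 4.90% of all genes.

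Because these genes moved together, their promoters are shown for the members with the largest rise at day 3 among those that RefSeq gives a promoter window for. A window runs from 250 bases before to 50 bases after a transcription start (300 bases, RefSeq, build GRCm38.p6), and 46 of the 57 members had at least 1 window. No window was used for Ccna2, Cdc25c, Pbk, Aurkb, Incenp, Spc24, Tpx2, Dlgap5, Smc4, Kif20a and Cdca2. Capitals mark 2 motifs searched on both strands. The first is the cell cycle genes homology region, TTTGAA or TTCGAA, a short motif known from promoters that are held silent by the DREAM repressor complex in resting cells. The second is CCAAT, read as ATTGG on the other strand, which is bound by NF-Y. TTCGAA reads the same on both strands, and a match to 1 motif is never itself a match to the other. Plk1 lies at chr7:122159185-122159484 on the plus strand, Bub1 at chr2:127831810-127832109 on the minus strand, Top2a at chr11:99024140-99024439 on the minus strand, and Mad2l1 at chr6:66534971-66535270 on the plus strand. Aurka, at chr2:172370521-172370820 on the minus strand, was added after its values were seen, as the member with the smallest rise at day 7.
Plk1: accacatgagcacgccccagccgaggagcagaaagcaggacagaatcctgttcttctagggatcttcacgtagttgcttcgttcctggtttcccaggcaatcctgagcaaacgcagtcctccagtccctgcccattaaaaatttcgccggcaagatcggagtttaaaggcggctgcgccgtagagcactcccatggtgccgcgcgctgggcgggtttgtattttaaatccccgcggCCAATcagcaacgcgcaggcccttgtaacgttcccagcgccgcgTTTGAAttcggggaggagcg
Bub1: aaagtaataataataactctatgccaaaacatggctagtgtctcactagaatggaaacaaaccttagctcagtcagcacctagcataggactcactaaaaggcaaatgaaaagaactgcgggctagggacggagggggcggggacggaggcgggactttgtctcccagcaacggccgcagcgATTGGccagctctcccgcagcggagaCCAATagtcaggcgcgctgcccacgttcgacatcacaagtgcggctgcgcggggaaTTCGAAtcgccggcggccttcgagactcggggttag
Top2a: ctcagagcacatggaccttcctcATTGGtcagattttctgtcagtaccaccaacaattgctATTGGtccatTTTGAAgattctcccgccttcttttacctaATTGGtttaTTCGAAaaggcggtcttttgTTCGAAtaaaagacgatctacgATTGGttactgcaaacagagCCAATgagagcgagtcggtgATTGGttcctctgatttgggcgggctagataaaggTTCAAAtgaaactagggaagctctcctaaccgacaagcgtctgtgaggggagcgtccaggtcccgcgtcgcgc
Mad2l1: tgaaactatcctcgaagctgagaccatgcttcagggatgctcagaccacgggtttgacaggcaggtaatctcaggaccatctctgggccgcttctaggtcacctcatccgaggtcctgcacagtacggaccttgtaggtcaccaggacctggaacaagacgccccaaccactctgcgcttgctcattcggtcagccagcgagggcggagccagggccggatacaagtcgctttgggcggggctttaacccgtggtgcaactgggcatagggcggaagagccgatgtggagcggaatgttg
Aurka: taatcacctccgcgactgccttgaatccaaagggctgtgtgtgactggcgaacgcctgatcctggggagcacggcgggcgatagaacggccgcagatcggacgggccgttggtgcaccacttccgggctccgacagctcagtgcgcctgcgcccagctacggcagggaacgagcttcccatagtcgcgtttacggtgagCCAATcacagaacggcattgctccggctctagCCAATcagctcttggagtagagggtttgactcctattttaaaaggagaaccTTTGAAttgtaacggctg

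Plk1 held TTTGAA 31 bases past the start and CCAAT 14 bases before it, and Bub1 held TTCGAA 15 bases past the start with CCAAT at 68 and 42 bases before it. Top2a held 4 matches to the first motif and 6 to the second. Mad2l1 held neither, and its log2 rise at day 7 was 2.75 ± 0.21 (SE, n = 2 pools a day). Aurka held TTTGAA 33 bases past the start and 2 matches to CCAAT, at 51 and 19 bases before it. Whether these letters go with the size of the rise was not tested.

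Over the 50 windows of the members, TTTGAA or TTCGAA was present in 37 (74%), against 19.2% of all 32851 promoter windows of the same length. Within 50 bases of the start on either side it was present in 33 (66%), against 5.31%. CCAAT was present in 38 (76%), against 37.4%, and both motifs in 31 (62%), against 7.52%. An E2F-type motif, searched as TTTCCCGC, TTTCGCGC, TTTGGCGC or TTTGCCGC, was present in 5 (10%), against 2.26%. The median log2 rise at day 7 was 2.05 for the 35 measured members with TTTGAA or TTCGAA and 2.01 for the 10 with neither. At day 3 these medians were 1.86 and 1.56. For CCAAT the day 3 medians were 1.86 for the 33 members with it and 1.52 for the 12 without. The day 7 medians for CCAAT were 2.05 and 2.04. These differences were not tested. A match is a description of the letters and not of a bound site, and windows of 1 gene overlap.

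Of the cyclins and factors of mitotic entry, Ccna2, Ccnb2, Cdk1 and Cdc25c were measured, and all 4 were called higher at days 3, 5 and 7. Ccna2, cyclin A2, read 8.34 and 7.50 (log2 intensity, right and left pool) at day 0, 8.85 and 7.91 at day 1, 10.88 and 10.89 at day 3, 10.94 and 11.25 at day 5, 11.28 and 11.15 at day 7, 9.96 and 10.02 at day 10, and 9.34 and 9.48 at day 14. The pools of day 1 overlapped those of day 0, while all pools from day 3 on lay above both day 0 pools. The log2 difference from day 0 was 2.96 ± 0.29 at day 3 (adjusted p = 5.35e-06, limma), 3.29 ± 0.29 at day 7 (adjusted p = 1.8e-06) and 1.49 ± 0.29 at day 14 (adjusted p = 0.0016), where ± is the standard error of the fit with n = 2 pools a day throughout. Its fall from day 7 to day 10 was -1.22 ± 0.29 (adjusted p = 0.0153), a call that was lost without the right pool of day 7 (adjusted p = 0.113) or without either pool of day 10.

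Cdk1, the kinase that starts mitosis, read 8.82 and 8.25 at day 0, 8.55 and 8.29 at day 1, 11.01 and 10.99 at day 3, 11.34 and 11.09 at day 7, and 9.45 and 9.51 at day 14. Both pools of day 1 lay within the range of the day 0 pools, and the pools of days 3 and 7 lay far above it. Its rise was 2.46 ± 0.17 at day 3 and 2.68 ± 0.17 at day 7 (adjusted p = 3.74e-07 and 1.54e-07). Ccnb2, cyclin B2, rose by 2.81 ± 0.30 at day 7. Cdc25c, a phosphatase that removes inhibitory phosphates from Cdk1, rose by 1.12 ± 0.21 at day 3 and 1.36 ± 0.21 at day 7, and it was not called at day 14.

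**Figure D2:**
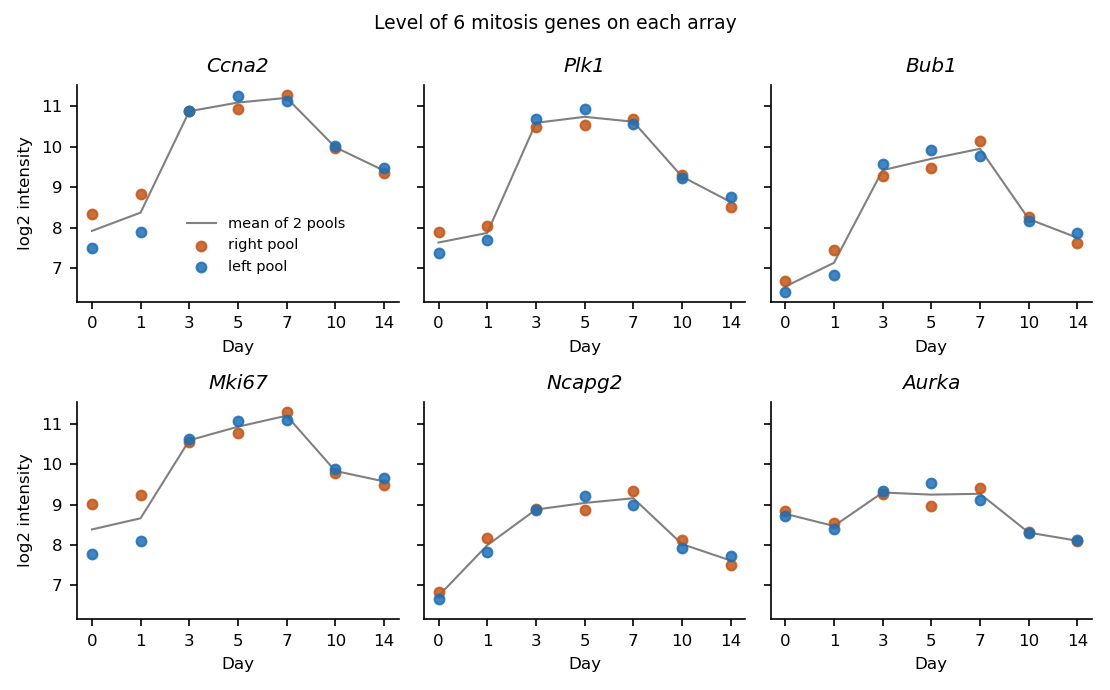
Log2 intensity (y axis) of 6 mitosis genes in the right and left pool of each day (x axis, not to scale), with a line through the means of the 2 pools. Ccna2, Plk1, Bub1 and Mki67 were high from day 3 to day 7 and remained above their day 0 pools at day 14, Ncapg2 was already above day 0 at day 1, and Aurka ended below it.

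The 4 mitotic kinases differed most among themselves. Plk1, a kinase with tasks from entry to cytokinesis, read 7.89 and 7.39 at day 0, 8.06 and 7.69 at day 1, 10.49 and 10.70 at day 3, 10.55 and 10.94 at day 5, 10.68 and 10.57 at day 7, 9.29 and 9.24 at day 10, and 8.52 and 8.75 at day 14. Every pool from day 3 on lay above both day 0 pools. It rose by 2.96 ± 0.18 at day 3 and 2.99 ± 0.18 at day 7 (adjusted p = 1.6e-07 and 1.15e-07), and it was 1.00 ± 0.18 above day 0 at day 14 (adjusted p = 0.00109).

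Aurka, a kinase of the centrosomes and spindle poles, read 8.84 and 8.71 at day 0, 8.54 and 8.40 at day 1, 9.25 and 9.34 at day 3, 8.96 and 9.53 at day 5, 9.42 and 9.11 at day 7, 8.31 and 8.31 at day 10, and 8.09 and 8.12 at day 14. Its pools of days 3, 5 and 7 lay above those of day 0, and its pools of days 10 and 14 lay below them, the reverse of the other kinases. It rose by 0.53 ± 0.16 at day 3 (adjusted p = 0.016) and 0.49 ± 0.16 at day 7 (adjusted p = 0.0169), and it fell by 0.46 ± 0.16 at day 10 (adjusted p = 0.0287) and 0.67 ± 0.16 at day 14 (adjusted p = 0.0055). It was the 1 member called lower at days 10 and 14. Both rises were lost without the left pool of day 0 (adjusted p = 0.086 at day 3 and 0.0854 at day 7). The rise at day 3 was also lost without its own left pool (adjusted p = 0.0869), and that at day 7 without its own right pool (adjusted p = 0.145). The fall at day 10 was lost without any 1 of its 4 pools (adjusted p from 0.0533 to 0.122), while the fall at day 14 passed without each array in turn. Pbk and Nek2, the remaining kinases, rose by 1.70 ± 0.15 and 1.42 ± 0.13 at day 7.

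The chromosomal passenger complex corrects faulty attachments and later guides cytokinesis, and its kinase Aurkb and its subunits Incenp and Cdca8 were all called higher at days 3, 5, 7, 10 and 14. Aurkb read 8.63 and 8.70 at day 0, 8.71 and 8.39 at day 1, 10.74 and 10.79 at day 3, 10.64 and 11.03 at day 5, 10.83 and 10.62 at day 7, and 9.18 and 9.37 at day 14. Its pools of day 3 lay within the range of those of days 5 and 7, and its pools of day 14 still lay above those of day 0. It rose by 2.10 ± 0.14 at day 3 and 2.06 ± 0.14 at day 7 (adjusted p = 2.63e-07 and 2.3e-07), and it differed in direction from Aurka at day 14, at 0.61 ± 0.14 (adjusted p = 0.00451). The day 14 calls of Incenp and Cdca8 were lost without the left pool of day 0 (adjusted p = 0.136 and 0.187).

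The spindle checkpoint holds the cell until all kinetochores are attached, and its 4 genes rose at days 3, 5, 7 and 10. The day 10 call of Ttk was lost without the left pool of day 0 or the right pool of day 10 (adjusted p = 0.115 and 0.117). Bub1, a kinase of the checkpoint, read 6.68 and 6.41 at day 0, 7.45 and 6.82 at day 1, 9.27 and 9.58 at day 3, 9.49 and 9.93 at day 5, 10.14 and 9.76 at day 7, 8.27 and 8.16 at day 10, and 7.63 and 7.87 at day 14. Both pools of day 1 already lay above both of day 0. Its rise of 3.41 ± 0.22 at day 7 (10.6-fold, adjusted p = 1.69e-07) was the largest of the 56 members on that day, and its fall of -1.74 ± 0.22 from day 7 to day 10 (adjusted p = 0.00101) was the largest fall. Mad2l1, which blocks the anaphase-promoting complex while attachments are missing, rose by 2.75 ± 0.21 at day 7, Bub1b by 2.41 ± 0.15 and Ttk, the kinase that starts checkpoint signalling, by 1.75 ± 0.16.

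Among the 9 centromere and kinetochore genes, all were called higher at days 3, 5 and 7, and the size of the rise varied widely. Cenpe, a kinesin that carries chromosomes to the spindle's middle, read 6.75 and 6.18 at day 0, 8.39 and 8.36 at day 3, 9.20 and 8.95 at day 7, and 7.08 and 7.17 at day 14. Its pools of day 7 lay above those of day 3, and those of day 14 above those of day 0. It rose by 1.91 ± 0.19 at day 3 and 2.61 ± 0.19 at day 7 (adjusted p = 6.11e-06 and 4.02e-07). The 4 subunits of the Ndc80 complex, which binds microtubules as a unit, had unequal rises at day 7, with Nuf2 at 2.65 ± 0.29, Spc25 at 2.05 ± 0.15, Ndc80 at 1.15 ± 0.09 and Spc24 at 0.69 ± 0.15. Cenpa, the histone that marks the centromere, rose by 2.05 ± 0.18. No test was made of the differences between subunits. The calls of Spc24 at days 3 and 5 were lost without the right pool of day 0 (adjusted p = 0.078 and 0.0527).

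The 6 kinesins of the spindle, motors that slide or shorten microtubules, all rose at days 3, 5, 7 and 10. The day 10 call of Kif15 was lost without the left pool of day 0 (adjusted p = 0.0681), and that of Kif18a without any 1 of the 4 pools compared (adjusted p from 0.0516 to 0.0776). Kif11, which pushes the spindle poles apart, read 7.79 and 6.90 at day 0, 8.23 and 6.93 at day 1, 9.70 and 9.81 at day 3, 10.48 and 10.24 at day 7, and 8.68 and 8.80 at day 14. The right and left pools were far apart at days 0 and 1 and close afterwards. It rose by 3.02 ± 0.35 at day 7 (adjusted p = 2.08e-05) and was 1.40 ± 0.35 above day 0 at day 14 (adjusted p = 0.00851), a call lost without the left pool of day 0 (adjusted p = 0.0807) or of day 14 (adjusted p = 0.0504). At day 7 Kif2c, Kif4, Kif15, Kif22 and Kif18a rose by 1.55 to 2.66.

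The 7 spindle assembly proteins rose at days 3, 5, 7 and 10. The day 10 call of Dlgap5 was lost without the left pool of day 0 (adjusted p = 0.0552), and that of Ckap2 without the right pool of day 0 (adjusted p = 0.075) or without either pool of day 10 (adjusted p = 0.0657 and 0.063). Hmmr, a microtubule-associated protein that is also a receptor for hyaluronan, read 5.97 and 5.88 at day 0, 7.98 and 8.20 at day 3, 8.93 and 8.55 at day 7, and 6.59 and 6.92 at day 14. It showed the largest rise of this group at day 7, 2.81 ± 0.21 (adjusted p = 5.88e-07), and Tacc3 the smallest, 1.46 ± 0.13. Tpx2, which activates Aurka on the spindle, rose by 2.45 ± 0.17 on the same day.

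The 7 genes of chromosome condensation, condensin subunits with Top2a and Mki67, had a median log2 difference of 2.41 at day 7. Ncapg2, a subunit of condensin II, read 6.83 and 6.66 at day 0, 8.17 and 7.82 at day 1, 8.89 and 8.87 at day 3, 9.33 and 8.98 at day 7, and 7.51 and 7.73 at day 14. It was the member with the largest change at day 1, and both pools of that day lay above both of day 0. Top2a, the enzyme that untangles sister DNA, rose by 2.68 ± 0.28 at day 3 and 3.11 ± 0.28 at day 7. Mki67, the source of the Ki-67 antigen that coats mitotic chromosomes, read 9.0 and 7.77 at day 0, 9.24 and 8.09 at day 1, 10.55 and 10.63 at day 3, 11.30 and 11.10 at day 7, and 9.50 and 9.65 at day 14. The right pools of days 0 and 1 stood well above the left pools, and the rise at day 7 was 2.81 ± 0.38 (adjusted p = 5.88e-05).

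The 4 genes of anaphase and cohesion control had a median log2 difference of 1.30 at day 7 and 0.06 at day 14. Cdc20, which activates the anaphase-promoting complex, read 8.26 and 8.01 at day 0, 9.35 and 9.51 at day 3, 9.46 and 9.35 at day 7, 8.26 and 8.37 at day 10, and 8.05 and 8.26 at day 14. The pools of day 14 lay within the range of day 0. It rose by 1.27 ± 0.15 at day 7 (adjusted p = 2.21e-05). Fbxo5, an inhibitor of the same complex, rose by 1.32 ± 0.19, Espl1, the protease separase, by 0.89 ± 0.11, and Cdca5, the cohesin-protecting sororin, by 1.82 ± 0.17. Cdca5 was the 1 gene of these 4 called at day 14, and that call was lost without the left pool of day 0 (adjusted p = 0.103).

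The 6 cytokinesis genes had a median log2 difference of 2.71 at day 7. Kif23, a motor of the central spindle, read 7.48 and 7.06 at day 0, 8.16 and 7.75 at day 1, 9.53 and 9.58 at day 3, 10.28 and 10.14 at day 7, and 8.51 and 8.81 at day 14. Every later pool lay above both day 0 pools. It rose by 2.94 ± 0.18 at day 7 and was 1.38 ± 0.18 above day 0 at day 14 (adjusted p = 1.15e-07 and 9.44e-05). Prc1, which bundles microtubules of the central spindle, rose by 2.90 ± 0.19 and Kif20a by 2.89 ± 0.20 at day 7, while Kif14 rose by 1.29 ± 0.12. Cdca2 and Cdca3, the remaining members, rose by 1.18 ± 0.15 and 1.75 ± 0.17. For Kif14 and Top2a a second, dimmer probe set was left aside. It went from 5.79 at day 0 to 5.50 at day 7 for Kif14, against the rise of the brighter probe set, and from 3.82 to 4.49 for Top2a.

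**Figure D3:**
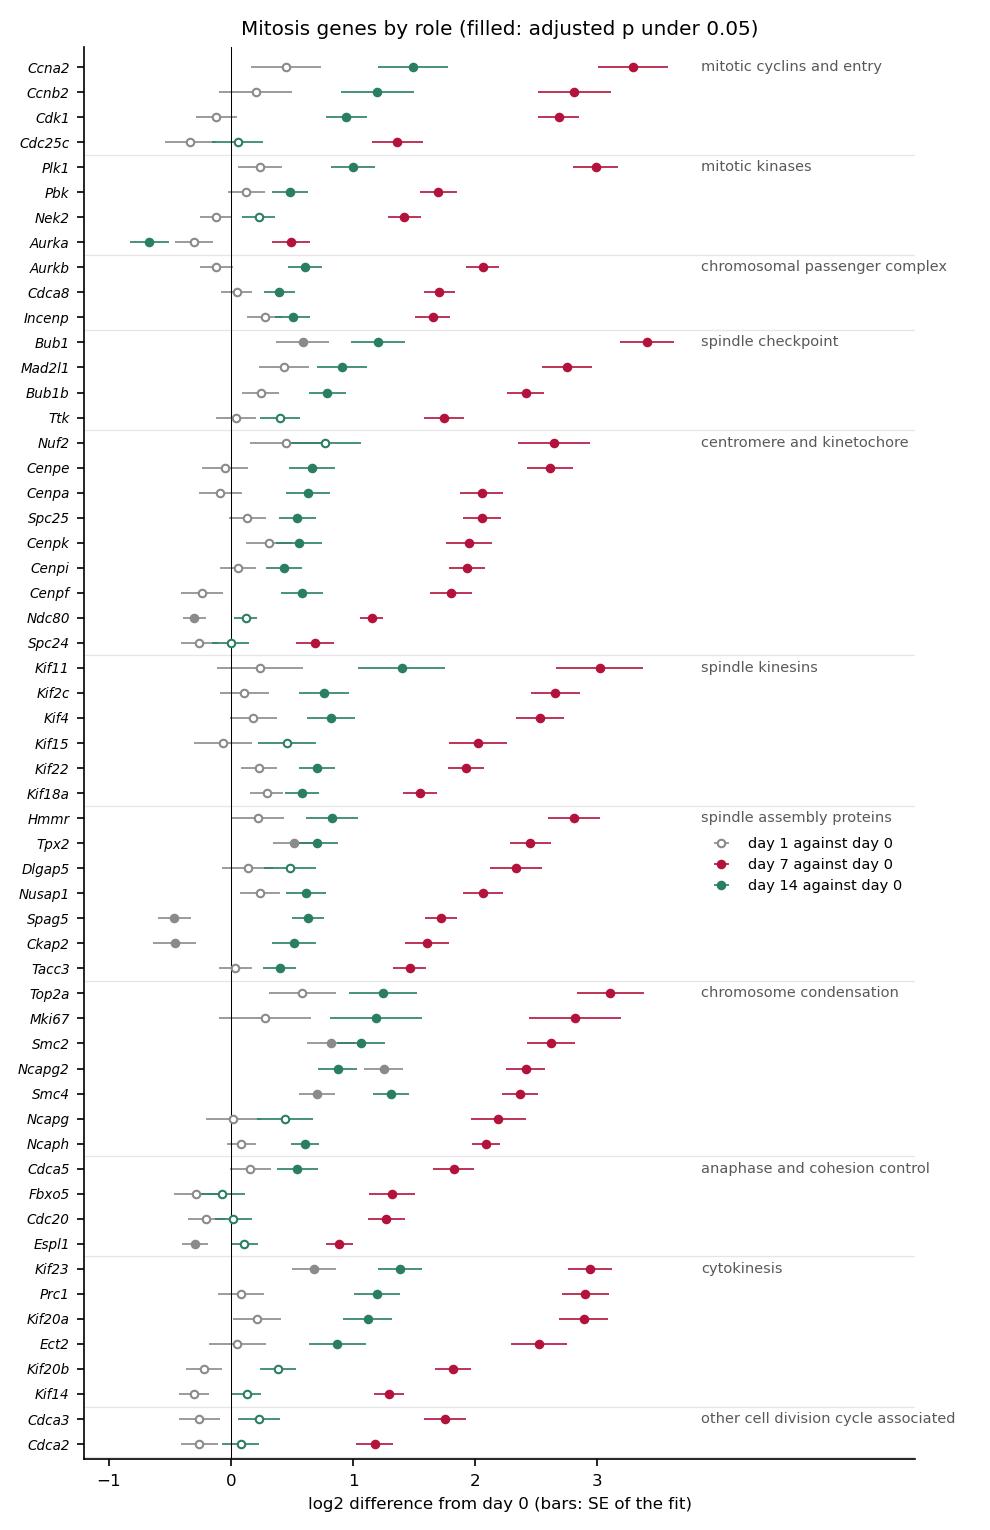
Log2 difference from day 0 (x axis) at days 1, 7 and 14 for each of the 56 mitosis genes (y axis), grouped by role, with bars for the standard error of the fit and filled points for an adjusted p under 0.05. All day 7 points are filled and lie between 0.49 and 3.41, whereas 10 of the day 1 points and 40 of the day 14 points are filled.

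At day 1, 10 of the 56 mitosis genes were called in either direction, against 55.0% of all genes. The 6 that rose were Ncapg2 by 1.25 ± 0.16 (adjusted p = 5.2e-05), Smc2 by 0.82 ± 0.20 (adjusted p = 0.00464), Smc4 by 0.70 ± 0.15 (adjusted p = 0.00175), Kif23 by 0.68 ± 0.18, Bub1 by 0.59 ± 0.22 and Tpx2 by 0.52 ± 0.17. Ncapg2, Smc2 and Smc4 are all condensin subunits. Ncapg and Ncaph, also condensin subunits, were not called at day 1. Their day means were 6.84 and 7.75 at day 0 and 6.86 and 7.83 at day 1. The 4 that fell were Spag5, a spindle protein, by 0.46 ± 0.13, Ckap2, a microtubule-binding protein, by 0.46 ± 0.18, Ndc80 by 0.30 ± 0.09 and Espl1 by 0.29 ± 0.11. Only the calls of Ncapg2, Smc2 and Smc4 passed without each of the 14 arrays in turn, and the other 7 were lost without at least 1 of the day 0 or day 1 pools.

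From day 1 to day 3 all 56 members rose, by a median of 1.59 and a range of 0.82 to 2.72, against 21.5% of all genes called higher. From day 3 to day 5 none was called by limma, against 6.41% of all genes called higher and 4.74% lower. An unadjusted p under 0.05 was found for 7, and 55 of the 56 differences were above 0. The fit on the arrays of those days alone called 2. All 56 genes were read in the same pools, so the signs of their differences are not independent of each other. The shares of all genes with such signs or unadjusted p-values are not given. Cenpe changed by 0.57 ± 0.19 (95% interval 0.16 to 0.99, adjusted p = 0.0739). From day 5 to day 7 none was called, against 0.667% higher and 0.487% lower, and 0 had an unadjusted p under 0.05. Here the largest difference was that of Smc2, 0.29 ± 0.20 (95% interval -0.15 to 0.72, adjusted p = 0.677). These intervals do not show that the levels were equal.

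From day 7 to day 10 all 56 fell, by a median of -1.19 and a range of -1.74 to -0.61, against 9.52% of all genes called lower. Without the right pool of day 7 the count was 46. From day 10 to day 14 none was called by limma, against 2.11% of all genes called higher and 2.56% lower. An unadjusted p under 0.05 was found for 8, and 54 of the 56 differences were below 0. The fit on the arrays of those days alone called 10, and quantile normalization called 2. Here too the signs are not independent of each other, and their shares of all genes are not given. Plk1 differed by -0.63 ± 0.18 (95% interval -1.03 to -0.23, adjusted p = 0.0763). Compared with day 3, 55 members were lower at day 14, against 16.3% of all genes, and Mki67 was not called (-1.02 ± 0.38, adjusted p = 0.0591).

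At day 14, 40 members were called in either direction, against 42.1% of all genes, 39 of them above day 0, and the largest differences were those of Ccna2, Kif11, Kif23 and Smc4, the last at 1.31 ± 0.15 (adjusted p = 2.99e-05). The 16 that were not called were Fbxo5, Spc24, Cdc20, Cdc25c, Cdca2, Espl1, Ndc80, Kif14, Nek2, Cdca3, Kif20b, Ttk, Ncapg, Kif15, Dlgap5 and Nuf2, the last at 0.77 ± 0.29 (adjusted p = 0.054). The number called in either direction depended on single pools, falling from 40 to 21 without the left pool of day 14 and to 22 without the left pool of day 0. Of the 40 calls, 19 passed without each array in turn, as did 35 of the 48 calls of day 10.

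The right and left pools of a day differed across nearly all members at once on some days. At day 0 the right pool was higher for 52 of 56 members, by a median of 0.26, and at day 1 for 54, by a median of 0.34. At day 5 the left pool was higher for all 56, with a median right minus left of -0.37, and at day 7 the right pool was higher for all 56, by a median of 0.25. The median over all genes lay between -0.02 and 0.05 on all 7 days. In a limma fit with day and side, 0 members and 0 of all genes were called between the sides (0% of all genes), and 0 members and 586 of all genes had an unadjusted p under 0.05.

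**Figure D4:**
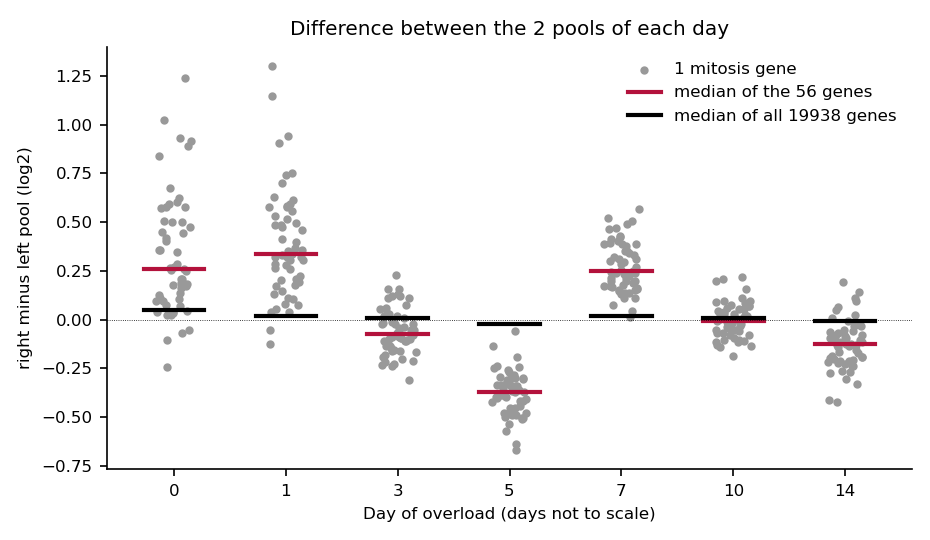
Right minus left pool (log2, y axis) for each of the 56 mitosis genes (points) by day (x axis, not to scale), with the median of the 56 genes and the median of all genes as bars. The median of the 56 genes was 0.34 at day 1, -0.37 at day 5 and 0.25 at day 7, while that of all genes was 0.02, -0.02 and 0.02.

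Markers of other cells differed between the same pools. The 10 marker genes of neutrophil precursors, dividing cells of the marrow, were all higher in the right pools of days 0 and 1. The medians of right minus left were 0.95 and 1.28. Their summed intensity was 9946 and 5233 in the right and left pools of day 0. At days 5 and 7 they ran opposite to the mitosis genes, with 8 of 10 higher on the right at day 5 (median 0.38). At day 7 all 10 were higher on the left (median right minus left -0.43). At days 3 and 14 most of them were higher on the left, as were most mitosis genes. Ngp, for example, read 7.90 on the right and 10.70 on the left at day 3, and 9.47 and 10.93 at day 14. From day 0 to day 1 the day means of Lcn2 and Chil3 rose from 11.17 to 13.28 and from 6.38 to 9.32. Those of the other genes of this list moved little, as for Ngp from 11.09 to 11.17. At day 5 the 12 muscle fibre markers had a summed intensity of 137402 on the right and 112762 on the left, with 11 higher on the right, and at day 7 of 111526 and 123242, with 12 higher on the left. The 10 hepatocyte genes were higher on the left at days 0 and 5, by medians of -2.26 and -2.46 for right minus left, and higher on the right at day 1, by 2.01. The satellite cell and myoblast markers were lower on the right at day 5 by a median of -0.42, except Des and Itga7. Those 2 read 13.87 and 11.70 on the right and 13.71 and 11.59 on the left. At day 7 the markers of this list were higher on the right, except Des and Cdh15. The part of these cells in the differences between pools was not tested.

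Other genes of the division pathway were read from lists chosen by function. Of 48 further measured mitosis genes, 12 rose and 6 fell at day 1, 44 rose and 1 fell at day 3, 45 rose and 1 fell at day 7, and 25 rose and 1 fell at day 14. The shares of all genes called higher on these days were 20.3%, 24.2%, 28.5% and 21.4%. Those called lower were 34.7%, 23.4%, 37.8% and 20.7%. Anln, an organizer of the contractile ring, rose by 2.92 ± 0.17 at day 7, Cks2, a Cdk1-binding protein, by 2.85 ± 0.10, and Racgap1 of the central spindle by 2.84 ± 0.15. Ska3 of the outer kinetochore rose by 2.74 ± 0.19 at day 5, and Birc5, the survivin subunit of the passenger complex, by 1.68 ± 0.17 at day 7. The gene that fell was Pttg1, securin, the inhibitor of separase, at -1.19 ± 0.08 at day 3, -1.38 ± 0.08 at day 7 and -0.93 ± 0.08 at day 14 (adjusted p = 4.06e-07, 1.09e-07 and 5.73e-06), and it was chosen after its values were seen.

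Of the 15 subunits and activators of the anaphase-promoting complex, 8 were called higher and 3 lower at day 7 (median log2 difference 0.28). The shares of all genes called at day 7 were 28.5% higher and 37.8% lower. Cdc16 rose by 0.71 ± 0.08 and Anapc2 by 0.66 ± 0.10 at day 7, whereas Anapc13 fell by 0.89 ± 0.08 at day 3 and Anapc5 by 0.92 ± 0.07 at day 10. Of 10 genes of cohesin, the ring that holds sister chromatids together, 6 rose and 0 fell at day 7 (limma, adjusted p under 0.05), with Smc1a at 0.84 ± 0.10 and Rad21 at 0.61 ± 0.08.

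A list of 8 transcription regulators of the division genes held 6 that activate or belong to activating complexes and 2 atypical E2F factors, E2f7 and E2f8, which repress, a split made after the values were seen. Of the 6, 5 rose at day 3 and 6 at day 7, and both atypical factors rose on both days, E2f8 by 2.06 ± 0.20 and E2f7 by 0.80 ± 0.14 at day 7. Foxm1, a factor that drives genes of late G2 phase, rose by 2.03 ± 0.12 at day 3 and 2.31 ± 0.12 at day 7 and was 0.94 ± 0.12 above day 0 at day 14. E2f1, a factor of S phase entry, rose by 1.58 ± 0.12 at day 3. Mybl2, the B-Myb partner of the activating complex, fell by 0.42 ± 0.12 at day 1 and rose by 0.87 ± 0.12 at day 3, and its fall was lost without the left pool of day 0 or of day 1 (adjusted p = 0.0907 and 0.088). Of 10 genes of the DREAM repressor complex, 6 rose and 3 fell at day 7, against 28.5% and 37.8% of all genes. Rbl1, the p107 pocket protein, rose by 1.78 ± 0.16 at day 7, and E2f4 rose by 0.96 at day 3. Rbl2, the p130 pocket protein of resting cells, fell by 1.10 ± 0.08 at day 1, and Tfdp2 fell by 1.33 ± 0.07 at day 3.

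All 4 genes that set the inhibitory phosphates of Cdk1 rose at day 7, among them the kinase Wee1 by 1.56 ± 0.11 and the phosphatase Cdc25b by 1.2 ± 0.15. Of 7 measured inhibitors of cyclin-dependent kinases, 1 rose and 5 fell at day 1, against 20.3% and 34.7% of all genes. At day 7, 3 rose and 1 fell, against 28.5% and 37.8% of all genes. Cdkn3 rose by 1.88 at day 5, and its day means were 7.27 at day 0, 9.15 at day 5 and 7.69 at day 14. Cdkn2c, an inhibitor of Cdk4 and Cdk6, fell by 0.84 ± 0.13 at day 1. Its day mean was 9.01 at day 0 and 9.43 at day 7. Cdkn1c, known as p57, fell by 0.65 ± 0.10 at day 1 and rose by 1.48 ± 0.10 at day 10 and 1.08 ± 0.10 at day 14 (adjusted p = 0.000158, 2.97e-07 and 5.11e-06). Of 17 genes of G1 and S phase, 11 rose at day 1 and 17 at days 3, 5 and 7. Pcna, the sliding clamp of DNA replication, rose by 1.32 ± 0.10 at day 1, when the mitosis genes had a median of 0.10 and the G1 and S phase genes a median of 0.78. Ccnd1, cyclin D1, rose by 2.0 ± 0.11 at day 3.

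The promoter motif TTTGAA or TTCGAA was present in 30 of 51 windows (58.8%) of the further mitosis genes, in 2 of 15 (13.3%) of the G1 and S phase genes, in 2 of 17 (11.8%) of the anaphase-promoting complex and in 2 of 8 (25%) of cohesin. CCAAT was present in 31 of 51 (60.8%), 9 of 15 (60%), 7 of 17 (41.2%) and 4 of 8 (50%) windows of these lists, in the same order. Its share was 37.4% of all promoters and 76% of the members' windows. With so few windows, the shares of the last 2 lists cannot be told from that of all promoters, and no difference was tested.

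**Figure D5:**
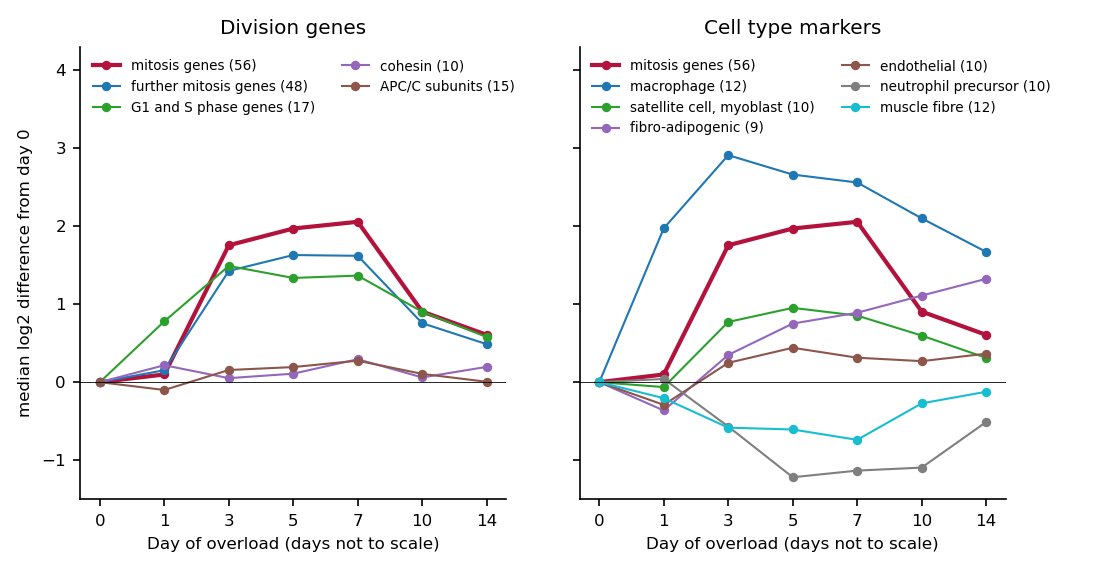
Median log2 difference from day 0 (y axis) by day (x axis, not to scale) for the 56 mitosis genes with other division genes (left panel) and with cell type markers (right panel); numbers in brackets are genes measured. The mitosis genes reached 2.06 at day 7 while the subunits of the anaphase-promoting complex and cohesin stayed at 0.28 and 0.29, and macrophage markers were already at 1.97 at day 1.

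Markers of cells that can divide in overloaded muscle moved on several courses. Of 12 macrophage markers, 11 rose at day 1 and 12 at days 3, 7 and 14, with medians of 1.97, 2.91, 2.56 and 1.67, and their summed intensity ran from 6617 to 7319 at day 0 and from 47818 to 48466 at day 3. Of 10 satellite cell and myoblast markers, 1 rose and 4 fell at day 1, 6 rose at day 3, 9 at day 7 and 5 at day 14, with medians of -0.06, 0.77, 0.85 and 0.31. Their summed intensity ran from 19353 to 19837 at day 0 and from 28531 to 29397 at day 7. Des, desmin, which fibres also express, made up 14129 to 14391 of the sum at day 0 and 12685 to 13325 at day 7. The other 9 markers together ran from 5224 to 5446 at day 0 and from 15206 to 16712 at day 7. Single markers of this list moved unequally. From day 0 to day 7 the day means of Mymk and Myog went from 8.61 to 12.30 and from 7.63 to 10.65. Those of Myod1 and Pax7 went from 10.33 to 11.18 and from 8.78 to 9.41, and that of Des from 13.80 to 13.67. Of 9 markers of fibro-adipogenic progenitors, 6 rose and 1 fell at day 7, and 8 rose and 1 fell at day 14, with medians of 0.89 and 1.33. The gene that fell was Gsn, gelsolin, at -1.26 ± 0.09 at day 7 and -0.35 ± 0.09 at day 14, named after its values were seen, and its day 14 call was lost without the right pool of that day (adjusted p = 0.098). The median was highest on the last day, but not the mean of every gene: those of Col1a1, Col3a1 and Pdgfra were slightly higher at day 7 than at day 14. The 12 muscle fibre markers all fell at days 3 and 7, with medians of -0.58 and -0.74. Of 10 endothelial markers, 7 rose and 3 fell at day 7. Beside these counts, 20.3%, 24.2%, 28.5% and 21.4% of all genes were called higher at days 1, 3, 7 and 14. On the same days 34.7%, 23.4%, 37.8% and 20.7% were called lower. The part of each cell type in the course of the mitosis genes was not tested.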

How the data were processed

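The deposited values are intensity on a linear scale, 1 per probe set and array, made by the authors with Partek software, per the submitters' processing notes; the summarising and normalizing steps are not given in the sources used here. Array medians of 242.8 to 254.9 point to scaling across arrays before deposit, which could have removed a change shared by most genes. Of 35556 probe sets, 21789 carried 1 gene symbol, 1621 several, and 12146 were not in the probe annotation. The log2 of the deposited intensity was taken as it stands. Where a gene had more than 1 such probe set, only its brightest by mean was kept, which left 19938 genes.

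Each gene was fitted with limma 3.58.1 (R 4.3.3), with 1 mean per day over all 14 arrays (7 residual degrees of freedom, plus 3.88 from the variance prior). Of the 12 comparisons, 6 were against day 0, 5 between later consecutive days, and 1 of day 14 against day 3. P-values were two-sided, with Benjamini-Hochberg adjustment per comparison across the whole gene table. The members, the lists and the rule for named genes (all members, up to 4 called genes of each other list by largest change from day 0 with pools that do not overlap, and a fixed panel) were chosen with earlier results of these data known. Precision is limited by the 2 arrays a day: the standard error of a log2 difference had a median of 0.0988. Promoter sequences are those of RefSeq. The fit was checked on simulated data, figures were drawn with matplotlib 3.10.9, and the alternatives are given at the end.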

Additional observations from a re-analysis of the deposited data

Results flagged for a closer look

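From day 5 to day 7 the 2 sides moved in opposite directions. Of the 56 mitosis genes, 53 (94.6%) rose between the right pools and fell between the left pools, against 27.7% of all genes. The median log2 change of the members was 0.45 between the right pools and -0.22 between the left pools. This difference between the sides was not tested, since each side has 1 pool a day.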

How the results depend on the processing

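The samples of each day are 2 pools, and a day left with 1 pool takes its spread from the other days. Quantile normalization, equal array medians, dropping the dimmest of 3 equal classes of genes (10 members), averaging probe sets, and a trended or robust prior kept the counts of members called against day 0 within 1.5 times. At day 1 the count of 10 became 6 with the arrays of the compared days only, 3 with limma's treat against 1.2-fold and 1 past 2-fold. At day 14 the count of 40 became 18 with treat and 12 past 2-fold, at day 10 the count of 48 became 25 past 2-fold, and for day 14 against day 3 the count of 55 became 35 past 2-fold. For day 5 against day 3 the compared days only gave 2. For day 14 against day 10, 2 were called under quantile normalization, 2 with the trended prior, 2 with the robust prior, 3 without the dimmest class and 10 with the compared days only. Leaving out each array in turn gave 6 to 13 at day 1, 21 to 42 at day 14, 0 to 2 for day 5 against day 3 and 0 to 2 for day 14 against day 10; the cause of these shifts was not tested. With side as a replicate block the count was 7 at day 1 and 39 at day 14, and no count moved by over 1.5 times. Deviations of the right pools from day means correlated between -0.58 and 0.44 over 21 pairs of days, with 9 pairs above 0.1. These correlations compare days and cannot show whether the 2 pools of a day share animals. Treat and the fit of compared days give no F test, and neither was run for it. Alternatives for right against left were added after seeing the data and called 0 members.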
